A study of Mus musculus with 8 samples.

Results

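A group of 9 target genes of the transcription factor p53 that act in death signalling was followed in mouse embryonic stem cells losing the RNA-binding protein HTATSF1: Fas, Tnfrsf10b, Eda2r, Perp, Ei24, Trp53inp1, Aen, Zmat3 and Phlda3. They were chosen by name, with earlier results of these data known, as the entries of the per-library expression tables with these identifiers. Each of the 9 had 1 entry among 20388 gene identifiers kept, and all 9 were among the 11867 genes tested. Fas passed the filter on low values only through tamoxifen libraries, since all 4 ethanol libraries lay under 1 FPKM (fragments per kilobase of transcript and per M of mapped fragments, a level that allows for transcript length).

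The study compared cultures treated with tamoxifen with cultures given ethanol, its vehicle. The 4 groups were tamoxifen for 72 h, ethanol for 72 h, tamoxifen for 48 h and ethanol for 48 h, with 2 libraries each and 8 in all. Every culture, ethanol included, was of the same genotype, tatsf1 flox/flox CreERT2, so that tamoxifen lets the recombinase delete the floxed gene, and every culture was grown on mouse embryonic fibroblasts (MEFs). Polyadenylated RNA was sequenced in bulk, with the fibroblasts' RNA in it. The labels name neither the promoter driving CreERT2 nor how many lines or cultures were used. The p-values therefore reflect only how far the libraries of a group lie apart, a spread that may be technical. There was no group that received tamoxifen without a floxed gene, so tamoxifen or active CreERT2 and the deletion itself cannot be told apart, nor can time and any batch of preparation that went with it.

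The fragments implied by the deposited intervals summed to between 8.99 M and 16.8 M per library. Htatsf1 stood at 4.12 and 4.63 FPKM in tamoxifen and at 22.7 and 22.7 FPKM in ethanol at 72 h, and at 4.13 and 3.78 FPKM in tamoxifen and 23.0 and 21.7 FPKM in ethanol at 48 h. Pou5f1, which defines pluripotent cells, was high in every library, and of 12 stem cell markers Sox2 alone was listed at 0. The summed level of 25 fibroblast markers, none of them at 0 in any library, was 1433 to 1514 FPKM in tamoxifen and 754 to 780 FPKM in ethanol at 72 h, and 1038 to 1039 FPKM in tamoxifen and 702 to 747 FPKM in ethanol at 48 h. Among these markers 23 of 25 rose at each time, with a median log2 change of 1.06 at 72 h and 0.53 at 48 h. Their count at 48 h was lower without any 1 library of 48 h. Of 11 tested stem cell markers 6 fell at 72 h and 1 fell at 48 h (medians -0.33 and -0.03). Of 6 tested primitive endoderm markers 4 rose and 1 fell at 72 h and 2 rose at 48 h. Pdgfra stands both in this list and among the fibroblast markers. Of 5 tested trophoblast markers 3 rose and 1 fell at 72 h and 2 rose at 48 h. Leaving out any 1 library of 48 h lowered at least 1 of these 48 h counts of 1 or 2 genes, to 0 or 1. Over all genes tested 20.1% rose and 18.5% fell at 72 h, and 7.88% rose and 4.47% fell at 48 h.

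p53 is a transcription factor that is kept scarce by the ubiquitin ligase MDM2 and becomes stable and active when cells meet DNA damage, disturbed ribosome production or other stress. Its targets arrest the cell cycle, repair DNA, feed back on p53 itself or prepare the cell for death. The genes described here belong to the last branch. Death receptors of the tumour necrosis factor receptor family take up signals at the cell surface and pass them to caspases, membrane proteins act downstream, and nuclear proteins change DNA, RNA or p53 itself. Embryonic stem cells are known to be primed for death and to respond strongly when p53 is activated.

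p53 binds a pair of 10-base half-sites, and the promoters of the members were searched for them because the members moved together. RefSeq promoters on GRCm38.p6, running from 250 bases before to 50 bases after an annotated start, were matched for Fas, Eda2r, Aen, Phlda3 and Ei24, in 6 windows of which 2 belong to Aen. An exact p53 half-site, searched on both strands, was found in the windows of Aen and Ei24, and 8.36% of 32851 promoters of this length held one. A window of each is shown, the half-site in capitals. In Aen the same half-site (chr7:78895937-78895946) lies 121 bases before the start shown and 10 bases after another annotated start. In Ei24 (chr9:36797335-36797344, minus strand) it begins 10 bases before the start.
Aen promoter, chr7:78895808-78896107, plus strand: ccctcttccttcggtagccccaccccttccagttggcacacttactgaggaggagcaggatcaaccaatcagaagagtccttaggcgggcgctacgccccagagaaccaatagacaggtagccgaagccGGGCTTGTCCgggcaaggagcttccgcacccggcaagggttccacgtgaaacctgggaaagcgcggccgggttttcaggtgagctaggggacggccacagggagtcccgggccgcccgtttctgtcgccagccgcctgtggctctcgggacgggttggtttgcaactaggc
Ei24 promoter, chr9:36797285-36797584, minus strand: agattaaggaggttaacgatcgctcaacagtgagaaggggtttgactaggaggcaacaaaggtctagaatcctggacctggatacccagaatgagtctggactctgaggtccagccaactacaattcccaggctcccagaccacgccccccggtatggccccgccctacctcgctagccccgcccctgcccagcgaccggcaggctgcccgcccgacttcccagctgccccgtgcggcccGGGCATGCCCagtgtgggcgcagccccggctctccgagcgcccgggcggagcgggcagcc

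With 2 half-sites up to 13 bases apart, the best full site in Aen had 2 mismatches, a fit reached by 10.1% of all promoters. The best in Fas and Ei24 had 3, reached by 45.1%, and the best in Phlda3 and Eda2r had 4, reached by 89.3%. These matches describe letters within the windows alone. Binding was not measured here, and sites outside the windows were not searched.

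At 72 h every one of the 9 genes was higher in tamoxifen than in ethanol, and at 48 h 8 of 9 were. Leaving aside Fas, whose passage of the filter rested on tamoxifen libraries, 8 of 8 rose at each time. Tests were made with limma on log2(FPKM + 1), a scale that understates changes of low genes, with Benjamini-Hochberg adjustment over all genes and a call at an adjusted p of 0.05. By the same test 20.1% of all genes rose and 18.5% fell at 72 h, and 7.88% rose and 4.47% fell at 48 h. The members were chosen with earlier results of these data known, so their counts beside these shares describe them and test nothing. The median log2 change of the 9 was 0.58 at 72 h and 0.51 at 48 h, against -0.005 and 0.018 over all genes tested. Both tamoxifen libraries lay above both ethanol libraries for 9 of 9 members at 72 h, as they did for 35.2% of all genes, and for 8 of 9 at 48 h, against 32.7% of all genes. In the same libraries fibroblast markers rose, as given above, and their part in the members' changes was not tested. In bulk RNA more cells of a type and more RNA per cell cannot be told apart.

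**Figure D1:**
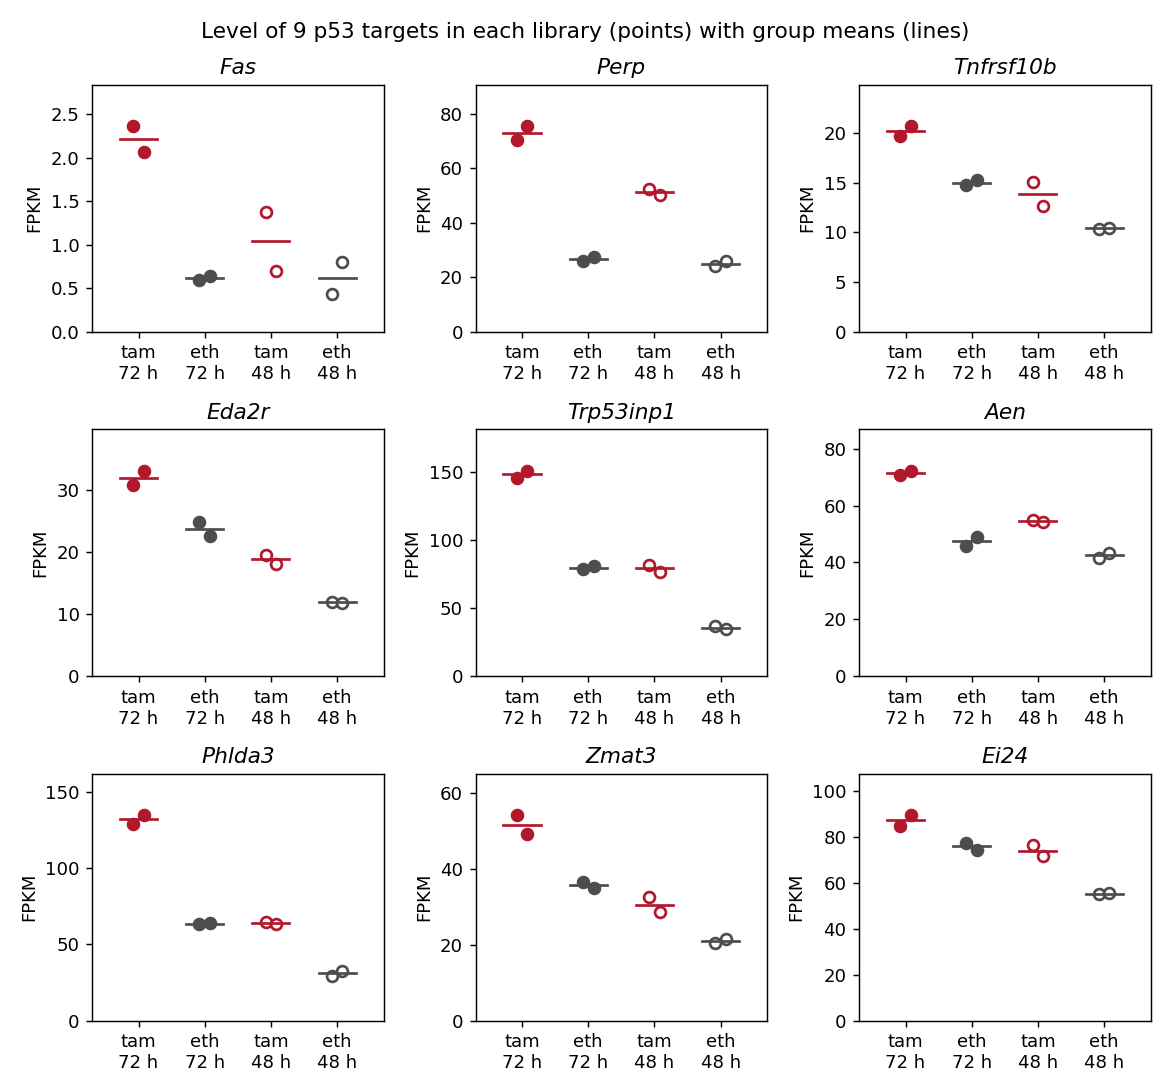
Level in FPKM of each of the 9 genes (1 panel each, linear axis from 0) in the 8 libraries, tamoxifen in red and ethanol in grey, 72 h filled and 48 h open, with lines at the group means. Tamoxifen points lie above the ethanol points of the same time in every panel except Fas at 48 h, where the groups overlap.

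The first members are the receptors. Fas (chromosome 19, 34365149 to 34402260, mm9), the receptor of Fas ligand that recruits FADD and caspase-8, had the lowest level of the 9. Its libraries held 2.36 and 2.06 FPKM in tamoxifen and 0.596 and 0.634 FPKM in ethanol at 72 h. They held 1.38 and 0.700 FPKM in tamoxifen and 0.431 and 0.801 FPKM in ethanol at 48 h. The groups were apart at 72 h and overlapped at 48 h, where 1 tamoxifen library lay below 1 ethanol library. The change was 0.99 ± 0.17 (SE, limma adjusted p = 0.00127) at 72 h, a 3.60-fold ratio of means, and 0.33 ± 0.17 (SE, adjusted p = 0.237) at 48 h, a 1.69-fold ratio that did not pass. The 72 h value depended on the pseudocount, being 1.69 with 0.1 and 0.36 with 5 in place of 1, and passed with each.

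Fas rested on few fragments. The intervals imply 55 and 50 fragments in tamoxifen and 12 and 18 in ethanol at 72 h, and 18.6 and 18 in tamoxifen and 10 and 15.9 in ethanol at 48 h. Divided by the library's sum in M these are 3.26 and 3.81 in tamoxifen and 1.12 and 1.23 in ethanol at 72 h, and 2.07 and 1.37 in tamoxifen and 0.827 and 1.12 in ethanol at 48 h. On that scale no 48 h tamoxifen library lay below an ethanol library. The 48 h change was 0.08 without tamoxifen 48 h replicate 1, 0.57 without tamoxifen 48 h replicate 2, 0.16 without ethanol 48 h replicate 1 and 0.49 without ethanol 48 h replicate 2, and it passed in none of these. In the authors' deposited table the mean scaled counts of Fas were 55 in tamoxifen and 15 in ethanol at 72 h (log2 1.88, the authors' adjusted p = 2.36e-07) and 26.0 in tamoxifen and 16.2 in ethanol at 48 h (log2 0.68, the authors' adjusted p = 0.376).

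Tnfrsf10b (chromosome 14, 70167279 to 70184218) encodes the mouse receptor of the ligand TRAIL. Its level was 19.7 and 20.7 FPKM in tamoxifen and 14.7 and 15.3 FPKM in ethanol at 72 h, and 15.1 and 12.7 FPKM in tamoxifen and 10.3 and 10.5 FPKM in ethanol at 48 h. Tamoxifen libraries were the higher ones at both times. The changes were nearly of one size, 0.41 ± 0.08 (SE, limma adjusted p = 0.00339) at 72 h and 0.38 ± 0.08 (SE, adjusted p = 0.0146) at 48 h. The 48 h call was lost without tamoxifen 48 h replicate 1 (0.26, adjusted p = 0.0989), ethanol 48 h replicate 1 (adjusted p = 0.0876) or ethanol 48 h replicate 2 (adjusted p = 0.0788).

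Eda2r (chromosome X, 94529180 to 94572548), the receptor of the A2 form of ectodysplasin, was the receptor of highest level. It stood at 30.8 and 33.2 FPKM in tamoxifen and 24.8 and 22.6 FPKM in ethanol at 72 h, and at 19.6 and 18.1 FPKM in tamoxifen and 12.0 and 11.8 FPKM in ethanol at 48 h. No tamoxifen library overlapped the ethanol libraries of its time. Eda2r rose by 0.42 ± 0.07 at 72 h (SE, limma adjusted p = 0.00139) and by 0.62 ± 0.07 at 48 h (SE, adjusted p = 0.000838). The ligands of these receptors were scarce: Fasl and Tnfsf10, which encodes TRAIL, averaged at most 0.0671 FPKM in any group, and Eda at most 0.742 FPKM, all below the filter.

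The list of death receptor machinery held adaptors, caspases, inhibitors and related genes, with the receptor gene Tnfrsf1a among them. Of its 19 tested genes, 3 rose and 4 fell at 72 h, with a median of -0.01, and 1 rose and 1 fell at 48 h, with a median of 0.04. At 72 h these shares lay near those of all genes, 20.1% higher and 18.5% lower. Casp8, the initiator caspase, averaged 1.47 FPKM in tamoxifen and 1.24 FPKM in ethanol at 72 h and 1.55 FPKM in tamoxifen and 1.15 FPKM in ethanol at 48 h (adjusted p = 0.313 and 0.159). Tnfrsf1a, the receptor of tumour necrosis factor, rose at 72 h, with 9.35 and 9.68 FPKM in tamoxifen and 5.56 and 5.50 FPKM in ethanol (0.69, limma adjusted p = 0.00138). Cflar, an inhibitor of caspase-8, rose at 72 h by 0.42 (adjusted p = 0.00406), and Birc2, a ubiquitin ligase that restrains death receptor signalling, fell by 0.35 (adjusted p = 0.00543). The other gene that rose at 72 h was Lrdd, the p53-induced adaptor PIDD (0.49, adjusted p = 0.00471), and the others that fell were Cradd (-0.35, adjusted p = 0.039), Dap3 (-0.24, adjusted p = 0.00984) and Diablo (-0.27, adjusted p = 0.0142). Those 3 falls were each lost without ethanol 72 h replicate 2. Cradd and Diablo also lost theirs without tamoxifen 72 h replicate 1, and Cradd without tamoxifen 72 h replicate 2. The fall of Cradd was also lost with no low-value filter, without the mean trend of the fit and with the 4 libraries of 72 h alone. At 48 h the rise of Tnfrsf1a (0.42, adjusted p = 0.0455) and the fall of Birc2 (-0.29, adjusted p = 0.0356) were lost in 13 and 7 alternatives, among them leaving out any of 7 libraries for Tnfrsf1a and any of the 4 libraries of 48 h for Birc2, with adjusted p up to 0.268 and 0.196. The count of falls at 72 h was 2 without tamoxifen 72 h replicate 1 and 1 without ethanol 72 h replicate 2.

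Among the membrane effectors, Perp (chromosome 10, 18564877 to 18576878) had the largest change of the 9 at 72 h on the log2(FPKM + 1) scale, while by the ratio of means Fas came first. It encodes a tetraspan membrane protein of the PMP22 family that promotes death and is also a part of desmosomes. Its level was 70.3 and 75.6 FPKM in tamoxifen and 25.9 and 27.4 FPKM in ethanol at 72 h, and 52.5 and 50.1 FPKM in tamoxifen and 24.0 and 25.9 FPKM in ethanol at 48 h. The 4 ethanol libraries lay close together while the 4 tamoxifen libraries were all more than 50 FPKM, those of 72 h above those of 48 h. Perp rose by 1.42 ± 0.06 at 72 h (SE, limma adjusted p = 5.76e-07), a 2.73-fold ratio, and by 1.01 ± 0.06 at 48 h (SE, adjusted p = 1.97e-05), a 2.05-fold ratio. Ranked by change on this scale among all tested genes it was number 30 at 72 h and number 13 at 48 h. In the authors' deposited table its log2 change was 1.43 at 72 h and 1.00 at 48 h.

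Ei24 (chromosome 9, 36586738 to 36604978), a protein of the endoplasmic reticulum membrane needed for autophagy, had the smallest change at 72 h. It stood at 85.0 and 89.7 FPKM in tamoxifen and 77.6 and 74.6 FPKM in ethanol at 72 h, and at 76.5 and 71.7 FPKM in tamoxifen and 55.1 and 55.5 FPKM in ethanol at 48 h. Tamoxifen libraries were higher at both times, by a wider gap at 48 h. The changes were 0.20 ± 0.06 at 72 h (SE, limma adjusted p = 0.0194) and 0.41 ± 0.06 at 48 h (SE, adjusted p = 0.00175). The 72 h call was lost without tamoxifen 72 h replicate 2 (adjusted p = 0.0896), without ethanol 72 h replicate 2 (adjusted p = 0.109) and without the mean trend of the fit (adjusted p = 0.0513). In the authors' deposited table the 72 h change of Ei24 was 0.18 (the authors' adjusted p = 0.0184).

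**Figure D2:**
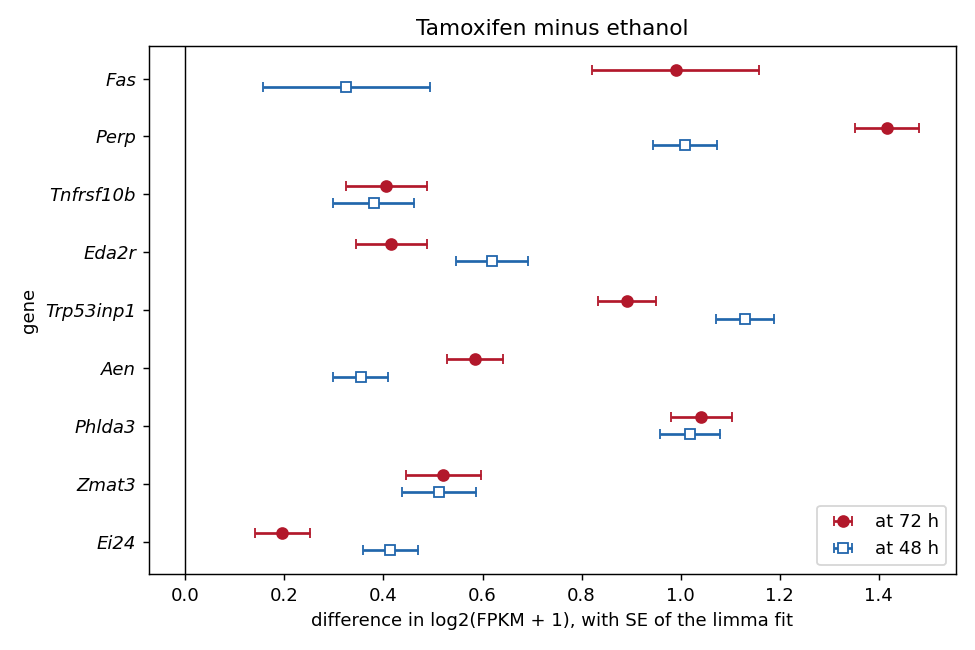
Tamoxifen minus ethanol in log2(FPKM + 1) for each of the 9 genes, at 72 h (red circles) and 48 h (blue squares), with bars of 1 SE of the limma fit on either side. All points lie right of 0, from 0.20 for Ei24 to 1.42 for Perp at 72 h and from 0.33 for Fas to 1.13 for Trp53inp1 at 48 h.

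The nuclear and RNA-binding members and Phlda3 followed. Trp53inp1 (chromosome 4, 11083588 to 11101524), a stress-induced protein that promotes p53-dependent death and autophagy, had the highest level of the 9 in 3 of the 4 groups. It stood at 145.6 and 150.8 FPKM in tamoxifen and 78.2 and 80.6 FPKM in ethanol at 72 h, and at 81.9 and 76.6 FPKM in tamoxifen and 36.8 and 34.5 FPKM in ethanol at 48 h. The groups of each time were far apart, and the 48 h tamoxifen libraries stood at the level of the 72 h ethanol libraries. Trp53inp1 rose by 0.89 ± 0.06 at 72 h (SE, limma adjusted p = 3.49e-06), a 1.87-fold ratio, and by 1.13 ± 0.06 at 48 h (SE, adjusted p = 4.87e-06), a 2.22-fold ratio. By change it was number 5 of all tested genes at 48 h and number 257 at 72 h.

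Aen (chromosome 7, 86040813 to 86053719) encodes a nuclease that enhances apoptosis. It had 70.7 and 72.3 FPKM in tamoxifen and 45.8 and 48.9 FPKM in ethanol at 72 h, and 54.8 and 54.2 FPKM in tamoxifen and 41.5 and 43.5 FPKM in ethanol at 48 h. Its ethanol libraries of both times lay below every tamoxifen library. The change was 0.59 ± 0.06 at 72 h (SE, limma adjusted p = 3.64e-05) and 0.35 ± 0.06 at 48 h (SE, adjusted p = 0.00364).

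Zmat3 (chromosome 3, 32233716 to 32264587), a zinc finger protein that binds RNA and affects its splicing and stability, had 54.2 and 49.2 FPKM in tamoxifen and 36.5 and 34.8 FPKM in ethanol at 72 h. At 48 h it had 32.5 and 28.5 FPKM in tamoxifen and 20.5 and 21.6 FPKM in ethanol. The groups of each time were apart. The changes were of nearly the same size, 0.52 ± 0.08 at 72 h (SE, limma adjusted p = 0.000494) and 0.51 ± 0.08 at 48 h (SE, adjusted p = 0.00256).

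Phlda3 (chromosome 1, 137662662 to 137665711), a pleckstrin homology protein that holds the survival kinase AKT away from the membrane, doubled at both times. Its level was 128.9 and 134.7 FPKM in tamoxifen and 63.0 and 63.9 FPKM in ethanol at 72 h, and 64.5 and 63.1 FPKM in tamoxifen and 29.3 and 32.7 FPKM in ethanol at 48 h. The tamoxifen and ethanol libraries were well apart at each time, and the 48 h tamoxifen libraries overlapped the 72 h ethanol libraries. Phlda3 rose by 1.04 ± 0.06 at 72 h (SE, limma adjusted p = 2.29e-06), a 2.08-fold ratio, and by 1.02 ± 0.06 at 48 h (SE, adjusted p = 1.61e-05), a 2.06-fold ratio. Among its partners, Akt1 rose at 72 h by 0.25 (adjusted p = 0.00557) and at 48 h by 0.28 (adjusted p = 0.0105), and its 48 h call was lost without any 1 of 3 libraries of 48 h (ethanol replicate 1 or 2, tamoxifen replicate 2, adjusted p up to 0.085). Akt2 rose at 72 h by 0.32 (adjusted p = 0.00336).

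The order of levels within a group changed with treatment and time. In tamoxifen at 72 h the means ran Trp53inp1 (148 FPKM), Phlda3 (132), Ei24 (87.3), Perp (73.0), Aen (71.5), Zmat3 (51.7), Eda2r (32.0), Tnfrsf10b (20.2) and Fas (2.21), all in FPKM. In ethanol at 48 h they ran Ei24 (55.3 FPKM), Aen (42.5), Trp53inp1 (35.7), Phlda3 (31.0), Perp (24.98), Zmat3 (21.1), Eda2r (11.9), Tnfrsf10b (10.4) and Fas (0.616). Trp53inp1 and Phlda3 thus led in tamoxifen at 72 h and stood below Ei24 and Aen in ethanol at 48 h. Neighbours in these orders did not overlap between libraries, except Perp and Aen in tamoxifen at 72 h. From ethanol at 48 h as the base, the tamoxifen 72 h means were 4.25-fold for Phlda3, 4.16-fold for Trp53inp1, 3.59-fold for Fas and 2.92-fold for Perp, and 1.58-fold for Ei24.

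Whether the changes at 72 h and 48 h differed was tested as a contrast of its own, and 1 of 9 members passed, against 2.0% of all genes with a larger and 1.45% with a smaller value at 72 h. Perp had a change larger by 0.41 ± 0.09 at 72 h (SE, limma adjusted p = 0.0406). That call was lost with no low-value filter (adjusted p = 0.0847), without the trend (adjusted p = 0.0875), with the replicate number as a block (adjusted p = 0.0535) and without any 1 of 7 libraries, all but tamoxifen 72 h replicate 1 (adjusted p = 0.0756 to 0.147). In these libraries 12 of 25 fibroblast markers also had a larger change at 72 h, with a median difference of 0.46. That count was 4 to 7 without either tamoxifen or either ethanol library of 48 h or without ethanol 72 h replicate 1, and the part of the fibroblast RNA in the Perp difference was not tested. The difference was 0.67 ± 0.24 for Fas (SE, adjusted p = 0.149), 0.23 for Aen (adjusted p = 0.135), -0.24 for Trp53inp1 (adjusted p = 0.133), -0.22 for Ei24 (adjusted p = 0.154) and -0.20 for Eda2r (adjusted p = 0.29), and none of these passed. For Tnfrsf10b, Phlda3 and Zmat3 it was 0.03, 0.02 and 0.01, with standard errors between 0.09 and 0.12.

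The members also differed between 72 h and 48 h within one treatment. All genes together shifted over time, by a median of 0.115 in tamoxifen and 0.11 in ethanol, so values after median-ratio scaling, which brought these medians to -0.008 and -0.014, are given here. In tamoxifen 9 of 9 members were higher at 72 h before scaling, against 37.5% of all genes higher and 19.6% lower, and after scaling all but Ei24 (0.10, limma adjusted p = 0.168) were. In ethanol 7 of 9 were higher at 72 h before scaling, against 38.0% of all genes higher and 19.2% lower, and after scaling 6 were. The ethanol changes after scaling were 0.99 ± 0.06 for Trp53inp1 (SE, adjusted p = 7.42e-07), 0.87 ± 0.06 for Phlda3 (SE, adjusted p = 2.75e-06), 0.80 ± 0.07 for Eda2r (SE, adjusted p = 9.6e-06) and 0.60 ± 0.08 for Zmat3 (SE, adjusted p = 8.31e-05). Tnfrsf10b and Ei24 stood at 0.36 and 0.31. Fas, Perp and Aen did not pass in ethanol, at -0.05, -0.05 and 0.01 (adjusted p = 0.829, 0.567 and 0.85).

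**Figure D3:**
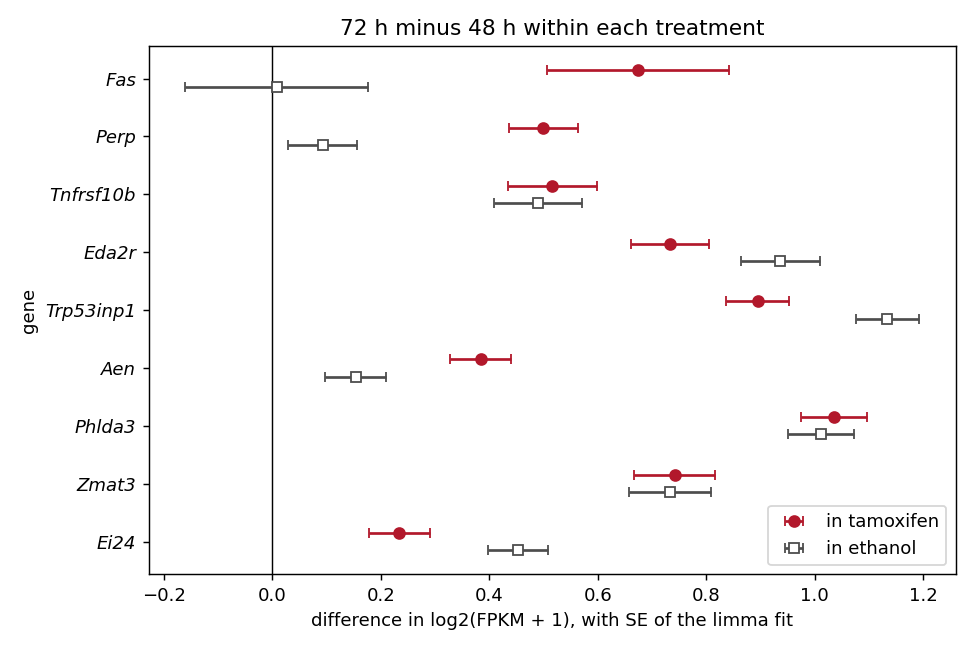
72 h minus 48 h in log2(FPKM + 1), before scaling, for each of the 9 genes, in tamoxifen (red circles) and in ethanol (grey squares), with bars of 1 SE of the limma fit on either side. Trp53inp1, Phlda3, Eda2r and Zmat3 lie at 0.73 or more in both treatments, while Fas and Perp lie near 0 in ethanol and at 0.67 and 0.50 in tamoxifen.

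Fas and Perp thus had values near 0 over time in ethanol, and Aen did after median-ratio scaling. The tamoxifen change over time of Perp after scaling was 0.36 ± 0.06 (SE, limma adjusted p = 0.000824), and that of Fas was 0.59 ± 0.17 (SE, adjusted p = 0.0128). The Fas call was lost without tamoxifen 48 h replicate 2 (0.43 before scaling, adjusted p = 0.0559) and after quantile normalization (0.43, adjusted p = 0.0531). In ethanol Aen passed before scaling (0.15, adjusted p = 0.0366) and after quantile normalization but not after median-ratio scaling. Before scaling its call was lost without the trend (adjusted p = 0.0771) and without any 1 of 5 libraries, both of ethanol 48 h, both of tamoxifen 48 h or ethanol 72 h replicate 2 (adjusted p = 0.0512 to 0.216). The tamoxifen 48 h means were 1.00 times the ethanol 72 h means for Trp53inp1 and Phlda3, 0.974 times for Ei24, 0.925 for Tnfrsf10b, 0.855 for Zmat3 and 0.794 for Eda2r, but 1.15 times for Aen, 1.69 for Fas and 1.92 for Perp. These ratios cross both treatment and time and were not tested. The comparisons of this paragraph share libraries with those of treatment, so their values stand side by side and are not independent of one another.

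The summed level of the 9 members was 607 to 628 FPKM in tamoxifen and 367 to 369 FPKM in ethanol at 72 h, and 376 to 399 FPKM in tamoxifen and 230 to 237 FPKM in ethanol at 48 h. Over time in ethanol the 25 fibroblast markers changed by a median of 0.04, with 5 higher and 6 lower, while in tamoxifen 21 were higher at 72 h with a median of 0.44, both before scaling.

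**Figure D4:**
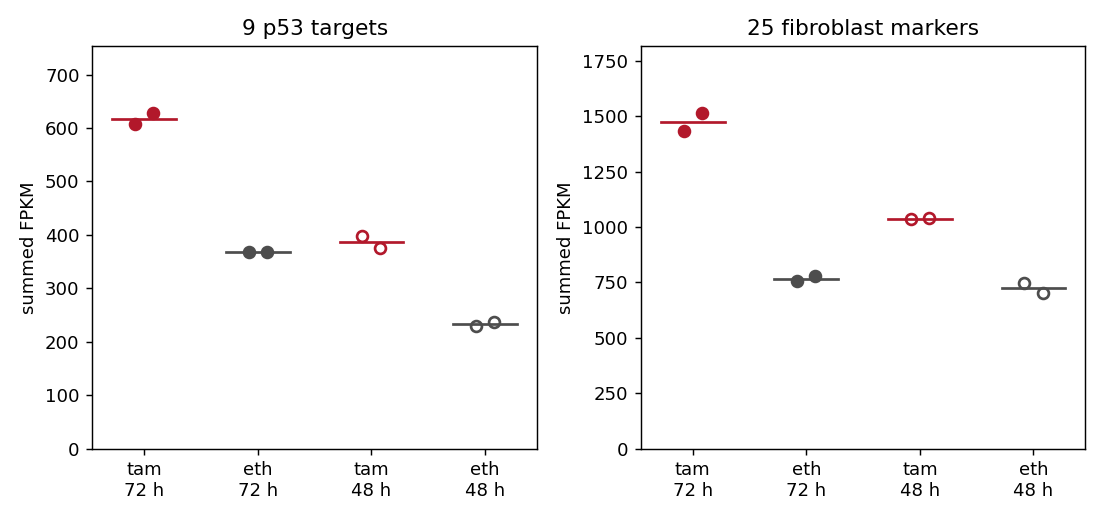
Summed FPKM of the 9 p53 targets (left) and of 25 fibroblast markers (right) in each library, tamoxifen in red and ethanol in grey, 72 h filled and 48 h open, with lines at the group means and axes from 0. Both sums are higher in tamoxifen at each time, and the ethanol libraries of 72 h stand apart from those of 48 h for the members (367 to 369 against 230 to 237) and close to them for the fibroblast markers (754 to 780 against 702 to 747).

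Most other p53 targets moved in the same direction, where 20.1% of all genes rose at 72 h and 7.88% at 48 h. This list too was drawn up with earlier results of these data known. Of the 35 targets tested, 24 rose, 1 fell and 10 were not called at 72 h, with a median of 0.45. At 48 h 20 rose, 1 fell and 14 were not called, with a median of 0.32. The gene that fell was Gls2, a mitochondrial glutaminase, at -0.39 at 72 h (limma adjusted p = 0.00318) and -0.27 at 48 h (adjusted p = 0.0486). The 48 h call of Gls2 was lost in 10 alternatives, among them leaving out any 1 library of 48 h or either ethanol library of 72 h (adjusted p up to 0.238). Mdm2 had 234.2 and 234.2 FPKM in tamoxifen and 55.7 and 60.1 FPKM in ethanol at 72 h, and 110.2 and 113.6 FPKM in tamoxifen and 50.8 and 46.9 FPKM in ethanol at 48 h, with changes of 2.00 (adjusted p = 7.74e-08) and 1.18 (adjusted p = 4.87e-06). Cdkn1a, the cell cycle inhibitor p21, averaged 122 FPKM in tamoxifen and 48.6 FPKM in ethanol at 72 h and 68.7 FPKM in tamoxifen and 35.8 FPKM in ethanol at 48 h (1.31 and 0.92). Plk2, a polo-like kinase, rose by 1.58 at 72 h (adjusted p = 3.6e-07). Without ethanol 48 h replicate 2 the count of rises at 48 h was 13.

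Trp53, which encodes p53 itself, was read beside its targets. It had 184.7 and 184.4 FPKM in tamoxifen and 150.2 and 153.2 FPKM in ethanol at 72 h, and 225.3 and 243.4 FPKM in tamoxifen and 197.0 and 208.0 FPKM in ethanol at 48 h. It was higher in tamoxifen by 0.28 ± 0.06 at 72 h (SE, limma adjusted p = 0.00307) and by 0.21 ± 0.06 at 48 h (SE, adjusted p = 0.0355), and the 48 h call was lost in 7 alternatives, among them leaving out any 1 library of 48 h (adjusted p up to 0.224). Over time Trp53 fell by 0.34 in tamoxifen and by 0.41 in ethanol before scaling, while most members rose. The protein was not measured.

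Of 18 tested regulators of p53, Trp53 among them, 6 rose and 5 fell at 72 h and 5 rose at 48 h. Their medians were -0.07 and -0.02. Over all genes 20.1% rose and 18.5% fell at 72 h, and 7.88% rose at 48 h. The count of falls was 3 without tamoxifen 72 h replicate 1, and the count of rises at 48 h was 3 without ethanol 48 h replicate 1 or 2. Trp73, which encodes the p53 relative p73, had 5.09 and 5.09 FPKM in tamoxifen and 1.38 and 1.36 FPKM in ethanol at 72 h, and 1.94 and 2.10 FPKM in tamoxifen and 0.663 and 0.652 FPKM in ethanol at 48 h. Its groups were apart at both times (1.36, limma adjusted p = 5.29e-06, and 0.87, adjusted p = 0.000632). Mdm4, a partner of MDM2, rose by 0.28 at 72 h and by 0.38 at 48 h (adjusted p = 0.00302 and 0.00256), and Ppm1d, a phosphatase that dampens the p53 response, by 0.52 and 0.47 (adjusted p = 0.000359 and 0.00334). Cdkn2a rose by 0.54 at 72 h and by 0.39 at 48 h (adjusted p = 0.000363 and 0.00843), and Kat5 by 0.21 at 72 h (adjusted p = 0.0419). Alternatives for Cdkn2a and Kat5 alone are not given here. The 5 regulators that fell at 72 h were kinases of the DNA damage response and the deubiquitinase Usp7 (-0.30, adjusted p = 0.00167). The kinases were Atr (-0.46, adjusted p = 0.000903), Atm (-0.34, adjusted p = 0.00309), Chek1 (-0.28, adjusted p = 0.0154) and Chek2 (-0.28, adjusted p = 0.0284). Chek1 and Chek2 lost their calls without tamoxifen 72 h replicate 1, and without ethanol 72 h replicate 1 for Chek1 and replicate 2 for Chek2. Chek2 also lost its call with no low-value filter and without the mean trend of the fit.

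Relatives of the members by family were compared with them. Of 17 tested, 6 rose at 72 h, with a median of -0.08, and 5 rose at 48 h, with a median of 0.12. Over all genes 20.1% rose at 72 h and 7.88% at 48 h. Emp1, of the family of PMP22 and Perp, had 34.7 and 38.0 FPKM in tamoxifen and 14.8 and 13.9 FPKM in ethanol at 72 h, and 41.6 and 41.4 FPKM in tamoxifen and 29.5 and 27.8 FPKM in ethanol at 48 h (1.28, limma adjusted p = 9e-07, and 0.52, adjusted p = 0.00119). Emp2 rose by 0.38 at 72 h (adjusted p = 0.0254) and by 0.57 at 48 h (adjusted p = 0.0114), calls that were lost in 4 and 2 alternatives, among them without tamoxifen replicate 1 or 2 or ethanol replicate 1 of 72 h and without tamoxifen replicate 2 or ethanol replicate 1 of 48 h (adjusted p up to 0.18 and 0.0868). Phlda1 rose by 0.69 at 72 h (adjusted p = 0.000105) and by 0.36 at 48 h (adjusted p = 0.0143), the 48 h call being lost without any 1 of 3 libraries of 48 h (ethanol replicate 1 or 2, tamoxifen replicate 2, adjusted p up to 0.106). Trp53inp2 stood at 0.08 at 72 h and 0.12 at 48 h (adjusted p = 0.417 and 0.309). After median-ratio scaling 3 relatives fell at 72 h, and after quantile normalization 2 did. At 48 h the count of rises was 3 without tamoxifen replicate 1, 3 without tamoxifen replicate 2, 1 without ethanol replicate 1 and 2 without ethanol replicate 2, all of 48 h.

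Of 16 tested ligands and partners of the members, 8 rose and 1 fell at 72 h and 3 rose at 48 h. Their medians were 0.20 and 0.13, where 20.1% of all genes rose at 72 h and 7.88% at 48 h. Bcl2l1, which encodes the survival protein BCL-XL, averaged 26.7 FPKM in tamoxifen and 16.3 FPKM in ethanol at 72 h and 20.2 FPKM in tamoxifen and 16.3 FPKM in ethanol at 48 h (0.68, limma adjusted p = 0.000143, and 0.29, adjusted p = 0.0406). The 48 h call of Bcl2l1 was lost in 8 alternatives, among them without any 1 library of 48 h and after median-ratio scaling (adjusted p up to 0.168). The 72 h count of rises was 5 without ethanol 72 h replicate 2. The 48 h count was 1 without tamoxifen 48 h replicate 1, and no partner passed without tamoxifen 48 h replicate 2, ethanol 48 h replicate 1 or ethanol 48 h replicate 2.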

How the data were processed

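Polyadenylated RNA was sequenced as paired ends, and the labels gave each library's group and replicate number. FPKM values per gene, with intervals and a status, were used as deposited by the authors. Build mm9 and the programs DESeq, HTSeq, Cufflinks 1.3.0, TopHat 1.4.1 and BWA 0.6.1 are named per the submitters' processing notes, with roles not given in the sources used here. In addition 2 comparison tables were deposited, whose signal is counts divided by size factors, with fold and log2 values and p-values, per the file headers. Their log2 is ethanol over tamoxifen, so its sign was turned here.

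Each table held 20789 entries for 20461 identifiers. Entries with a status other than OK (209) were left out and the entry of highest mean FPKM was kept per identifier, leaving 20388. Genes with at least 1 FPKM in at least 2 of 8 libraries were tested (11867), as log2(FPKM + 1), without rescaling. One limma fit (R 4.3.3, limma 3.58.1, mean trend, two-sided) over 4 group means had 4 residual degrees of freedom, with Benjamini-Hochberg adjustment over all genes within each contrast. It was tested on simulated data first. Fragments were implied from each interval, whose upper end was read as 2 Poisson SD above the value, and 91.6% to 92.8% of low values were whole within 0.02. They cover counting error only. Within groups the squared difference between libraries exceeded the counting variance by factors of 1.78 to 3.03, more than a library deposited again would show.

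Gene positions are on mm9, from the files. Starts count from 0 there, as spans of 6934 of 7763 genes of matching length showed, and 1 was added. Promoters are RefSeq's on GRCm38.p6.

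Named were all members, Htatsf1, Trp53, Mdm2, Cdkn1a, the 2 genes of smallest p per list and time, and the 5 genes outside the lists most like the members. Casp8, Lrdd, Cradd, Dap3, Diablo, Gls2, the falling p53 regulators, Cdkn2a, Kat5, the ligands, Trp53inp2, Pou5f1, Sox2 and Pdgfra were named after their values were seen. The members and lists were chosen with earlier results of these data known. Alternatives varied the pseudocount, filter, scaling, trend, libraries and replicate block. Those of list counts and of genes outside the rule were added after the data were seen.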

Additional observations from a re-analysis of the deposited data

Results flagged for a closer look

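Perp was flagged because its response to tamoxifen differed between the times in the main fit. As given above, that call was lost with no low-value filter, without the trend and with the replicate block. In the same libraries 12 of 25 fibroblast markers also had a larger change at 72 h. The change of Perp at 72 h exceeded that at 48 h by 0.41 on the log2(FPKM + 1) scale, by limma's test of the difference itself (adjusted p = 0.0406). In the libraries this is 70.3 and 75.6 FPKM in tamoxifen and 25.9 and 27.4 FPKM in ethanol at 72 h, and 52.5 and 50.1 FPKM in tamoxifen and 24.0 and 25.9 FPKM in ethanol at 48 h. Both 72 h tamoxifen libraries lay above both 48 h tamoxifen libraries. Over the alternatives the difference was 0.36 to 0.52 and its adjusted p 0.0126 to 0.147.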

How the results depend on the processing

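The counts of members called higher ran from 8 to 9 of 9 at 72 h, 7 to 8 at 48 h, 8 to 9 over time in tamoxifen and 6 to 7 over time in ethanol across all alternatives. The replicate block left them at 9, 8, 9 and 7. Deviations of same-numbered libraries correlated at -0.276 to 0.145 between groups. These values cannot show whether libraries were paired, as the labels give replicate numbers only. For the difference of the changes the count of members called was 1, and it was 0 without the filter on low values, 0 without the trend and 0 with the replicate block, and 0 to 1 when 1 library was left out. At an unadjusted p under 0.05 there were 5, 4 and 5 members in these 3 fits by limma, the one tool run.

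Values that changed sign were never called. When 1 library was left out, the difference of the changes ran from -0.092 to 0.144 for Tnfrsf10b, from -0.053 to 0.101 for Phlda3 and from -0.081 to 0.099 for Zmat3, and the change of Fas over time in ethanol from -0.158 to 0.174. That change of Fas was -0.047 after median-ratio scaling and -0.165 after quantile normalization, and that of Perp was -0.045 after median-ratio scaling. The cause was not tested.

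With a filter at 5 FPKM Fas was left out. The Fas values, on 10 to 55 fragments, are the only ones of the 9 on under 394 fragments. Where a left-out library leaves 1 in a group, that library is assumed to vary like the others.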

Other observations

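Outside the lists, the 5 genes whose profile over the 8 libraries was most like the mean profile of the 9 members, among 1834 genes with a range of at least 1 on the log2 scale, were Mbnl2 (Pearson r = 0.996), B930041F14Rik (0.995), Ptp4a3 (0.993), Scarf2 (0.993) and Sdc4 (0.991). The r describes 8 libraries of 4 groups, and genes with this order of group means were sought, so it carries no test. Mbnl2, an RNA-binding protein that regulates splicing, had 24.3 and 24.2 FPKM in tamoxifen and 12.8 and 13.4 FPKM in ethanol at 72 h, and 14.5 and 13.4 FPKM in tamoxifen and 8.58 and 8.67 FPKM in ethanol at 48 h. Ptp4a3, a protein tyrosine phosphatase, averaged 58.9 FPKM in tamoxifen and 28.6 FPKM in ethanol at 72 h, and 31.8 FPKM in tamoxifen and 17.7 FPKM in ethanol at 48 h. Sdc4, the heparan sulphate proteoglycan syndecan-4, averaged 117 FPKM in tamoxifen and 65.8 FPKM in ethanol at 72 h, and 64.0 FPKM in tamoxifen and 32.2 FPKM in ethanol at 48 h. As for Trp53inp1 and Phlda3, the tamoxifen libraries of 48 h and the ethanol libraries of 72 h stood at similar levels in each of these genes.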
